A study of Mus musculus with 63 samples.

Results

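The genes described here are 28 genes of cholesterol synthesis and sterol regulation in mouse, chosen by name and found in all 22 RNA-seq count tables, which list 47517 gene symbols. They fall into 5 regulators (Srebf1, Srebf2, Scap, Insig1, Insig2), 8 enzymes of the mevalonate and isoprenoid steps (Acat2, Hmgcs1, Mvk, Pmvk, Mvd, Idi1, Fdps, Ggps1), 11 enzymes that form the sterol from farnesyl diphosphate onwards (Fdft1, Sqle, Lss, Cyp51, Tm7sf2, Msmo1, Nsdhl, Hsd17b7, Ebp, Sc5d, Dhcr7) and 4 genes of sterol transport and efflux (Stard4, Npc1, Abca1, Nr1h2). All 28 had enough reads to be tested in each of the 14 comparisons. Levels are given as CPM, the count of a gene scaled to the total of counts assigned to genes in that library. CPM values are not corrected for gene length, so they are compared between libraries and not between genes.

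Cholesterol synthesis is set by a feedback loop in the endoplasmic reticulum. When membrane sterol is scarce, the escort protein SCAP carries the SREBP transcription factors, encoded by Srebf1 and Srebf2, to the Golgi, where they are cut and released to the nucleus. INSIG proteins hold the SCAP and SREBP complex back when sterol is plentiful. SREBP2 acts on nearly every gene of the mevalonate and sterol-forming steps, on Stard4 and on Insig1 itself, together with the CCAAT-binding factor NF-Y. In the opposite arm, oxysterols activate the liver X receptors, of which Nr1h2 encodes LXR beta, and these raise Abca1 and Srebf1. YY1, the factor altered in the study, is a zinc finger protein that binds DNA at promoters and enhancers and joins the 2 in chromatin loops.

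The study set mouse embryonic stem (ES) cells, kept in the serum-free medium 2i, beside extended pluripotent stem (EPS) cells, kept in the medium LCDM; both are of the C57BL/6 strain. There were 3 libraries each of ES and EPS cells, and 2 libraries each of EPS cells titled shCtrl or shYy1 (control and Yy1 hairpin RNA) and of ES cells titled oeCtrl or oeYy1 (control and Yy1 overexpression). Libraries titled F4H on day 6, 2 each, carry the names of the same 4 lines, and only the titles link them to the undifferentiated libraries. The labels use F4H as the name of a culture medium and give no composition. The hairpin sequence and the promoter that drives either construct are not given in the sources used here, and the names of some control files carry no construct, so the controls may be cells without one. Cells were grown either on feeder layers of mouse embryonic fibroblasts stopped with mitomycin C or on Matrigel, without a record of which library came from which. The labels do not say whether replicates were separate cultures, so a p-value here weighs a difference against the scatter of these libraries alone, and that scatter may be technical.

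Counts on genes ranged from 13672061 to 20782348 per library. Yy1, the targeted gene, stood at 134 and 134 CPM in EPS shCtrl and 70.5 and 70.5 in EPS shYy1, and at 120.4 and 124 in ES oeCtrl and 934 and 941 in ES oeYy1. On day 6 the gap of the hairpin line was 129 and 123 against 114 and 109.6 CPM (log2 fold change -0.03, SE 0.05, adjusted p = 0.567), so the day 6 libraries labelled shYy1 did not show the knockdown in this test. In CPM, which follow library totals, both lay below both controls, but the test used scaling factors, and Yy1 was not retested without them. The overexpressing line kept a higher level on day 6 (119.5 and 126 against 331 and 324 CPM). Replicate 3 of both ES and EPS stood apart from replicates 1 and 2, and the libraries of EPS shCtrl lay further apart than those of any other group of 2. The summed CPM of 8 pluripotency markers lay between 4563 and 6004 over the undifferentiated groups and between 213 and 464 on day 6. Over 16 fibroblast markers the sum was 2440.4 to 4486 in ES, 340.2 to 1026 in EPS, at most 60.3 in the 4 undifferentiated hairpin and overexpression groups, and 477 to 634 as group means on day 6. The summed CPM of Y-linked genes differed within each pair of lines, at 3.06 to 3.4 in EPS shCtrl, 155 to 158 in EPS shYy1, 111 to 131 in ES oeCtrl and 26.9 to 27.7 in ES oeYy1. Between the parental cells it differed too, at 64.1 to 77.2 in ES and 14.4 to 25.8 in EPS. It also differed between the stages. In the day 6 libraries it was 16.4 to 17.4 in EPS shCtrl, 169 to 176 in EPS shYy1, 101 to 105 in ES oeCtrl and 66 to 71.8 in ES oeYy1. What part these differences have in the results below was not tested.

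RefSeq start sites (assembly GRCm38.p6) gave promoter windows, from 250 bases before to 50 bases after a start, for 23 of the 28 genes. The letters CCAAT, the core that NF-Y reads, stood on either strand in a window of 19 of the 23 genes (82.6%) and of 41.1% of all 27025 genes with a window. The sterol regulatory element in the form TCACNCCAC was found in Hmgcs1 alone, 1 of 23 genes against 1.44% of all, and its shorter form CACNCCAC, which overlaps it, in Insig1, Acat2 and Hmgcs1, 13% against 7.12%. The YY1 type AANATGGC was found in 2 of the 23 genes, Srebf2 and Insig2 (8.7% against 6.96%), and the overlapping AGATGGC in 3, Insig2, Pmvk and Dhcr7 (13% against 7.31%). The E-box CACGTG was found in 6 (26.1% against 8.09%). These matches describe letters in one window and show neither binding nor its absence. The upstream 250 bases of 5 genes are shown, 5′ to 3′ on the strand of the gene, with matches to TCACNCCAC, CACNCCAC, CCAAT and AANATGGC on either strand in capitals (CCAAT reads ATTGG on the other strand). Hmgcs1 (chr13:119690101-119690350, plus strand) and Insig1 (chr5:28071162-28071411, plus strand) hold the sterol element or its shorter form, Msmo1 (chr8:64733579-64733828, minus strand) and Nsdhl (chrX:72918271-72918520, plus strand) hold CCAAT only, and all 4 were lower in Yy1-overexpressing ES cells. Mvk (chr5:114444019-114444268, plus strand), with 5 CCAAT matches, did not pass that test. Nor did Acat2, not shown, which holds 2 matches to the shorter sterol form.
Hmgcs1: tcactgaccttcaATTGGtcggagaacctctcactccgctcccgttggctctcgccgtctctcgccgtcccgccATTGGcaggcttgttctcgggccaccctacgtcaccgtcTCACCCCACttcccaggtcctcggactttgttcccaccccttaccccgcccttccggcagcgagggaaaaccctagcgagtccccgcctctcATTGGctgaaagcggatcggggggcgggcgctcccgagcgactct
Insig1: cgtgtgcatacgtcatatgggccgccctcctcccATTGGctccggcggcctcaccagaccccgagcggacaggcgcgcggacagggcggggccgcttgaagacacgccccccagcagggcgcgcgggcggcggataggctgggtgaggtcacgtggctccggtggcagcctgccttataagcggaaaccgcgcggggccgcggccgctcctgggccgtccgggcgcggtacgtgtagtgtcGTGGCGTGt
Msmo1: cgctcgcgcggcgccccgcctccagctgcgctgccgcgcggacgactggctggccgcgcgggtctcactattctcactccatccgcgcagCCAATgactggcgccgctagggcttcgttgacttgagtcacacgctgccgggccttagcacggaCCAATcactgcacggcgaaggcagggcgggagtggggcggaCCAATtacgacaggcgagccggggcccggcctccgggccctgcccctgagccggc
Nsdhl: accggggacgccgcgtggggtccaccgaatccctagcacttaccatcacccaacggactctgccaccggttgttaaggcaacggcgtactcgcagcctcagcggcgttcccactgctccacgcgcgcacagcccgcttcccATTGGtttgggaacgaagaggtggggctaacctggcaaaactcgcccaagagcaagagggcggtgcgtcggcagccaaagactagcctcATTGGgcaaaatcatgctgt
Mvk: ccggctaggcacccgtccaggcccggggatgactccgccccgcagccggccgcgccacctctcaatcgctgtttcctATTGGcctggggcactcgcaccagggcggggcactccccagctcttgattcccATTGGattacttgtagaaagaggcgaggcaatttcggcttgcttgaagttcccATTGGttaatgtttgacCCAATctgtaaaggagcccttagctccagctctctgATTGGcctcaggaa

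Summed over the 28 genes, the level was highest in the ES oeCtrl libraries and lowest on day 6. The sum was 2806 ± 37.8 CPM in ES (SD, n = 3) and 2699 ± 44.1 in EPS (SD, n = 3). It was 3713 ± 625 in EPS shCtrl, 3857 ± 245 in EPS shYy1, 4849 ± 7.04 in ES oeCtrl and 3176 ± 159 in ES oeYy1 (SD, n = 2 each). Every undifferentiated hairpin or overexpression library thus lay above every library of the parental ES and EPS cells, controls included. On day 6 the sums were 2068 ± 21.1 in EPS shCtrl, 2301 ± 1.34 in EPS shYy1, 2068 ± 22 in ES oeCtrl and 2280.2 ± 0.887 in ES oeYy1, so the 4 lines that spread from 3064 to 4854 CPM before differentiation lay within 2052 to 2302 after it. In bulk RNA, fewer cells that make these transcripts and less transcript per cell cannot be told apart.

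**Figure D1:**
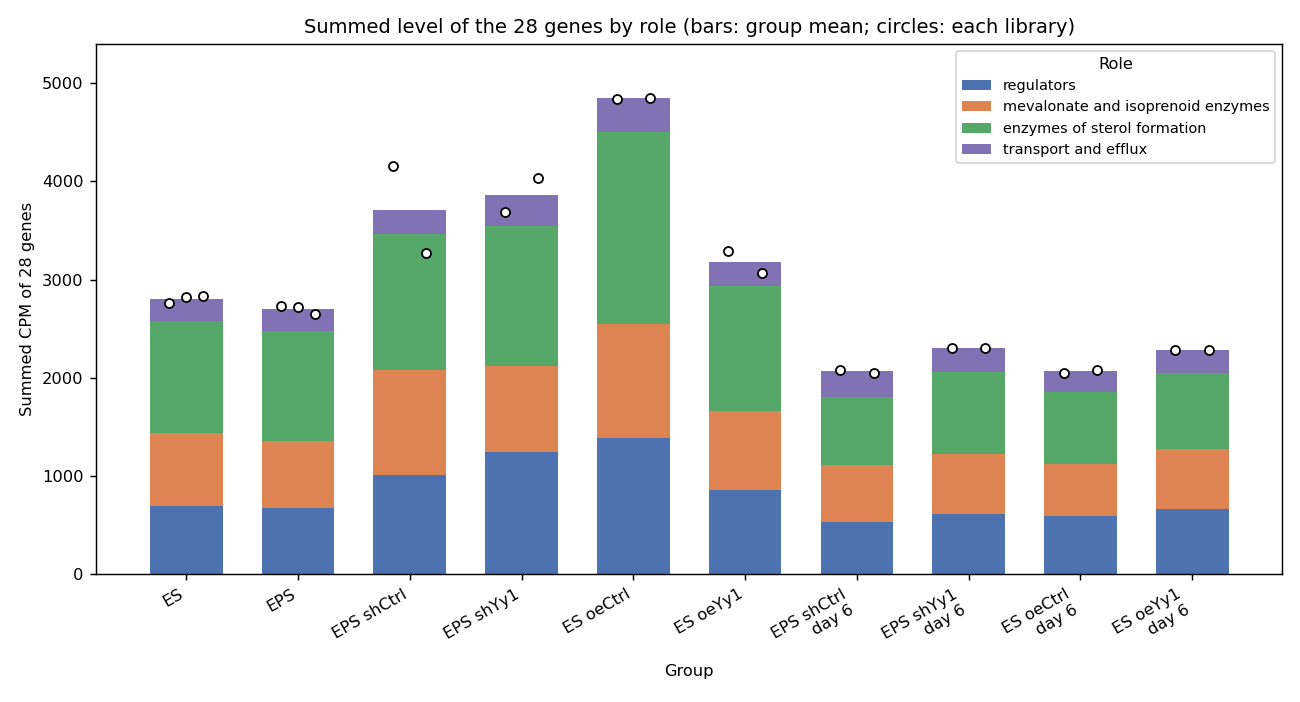
Summed CPM of the 28 genes (vertical axis) in the 10 groups, stacked by role, with bars at the group mean and circles for single libraries. The ES oeCtrl libraries stand highest, at 4844 and 4854 CPM, and the 8 day 6 libraries lowest; the share of a role within a bar is not corrected for gene length.

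**Figure D2:**
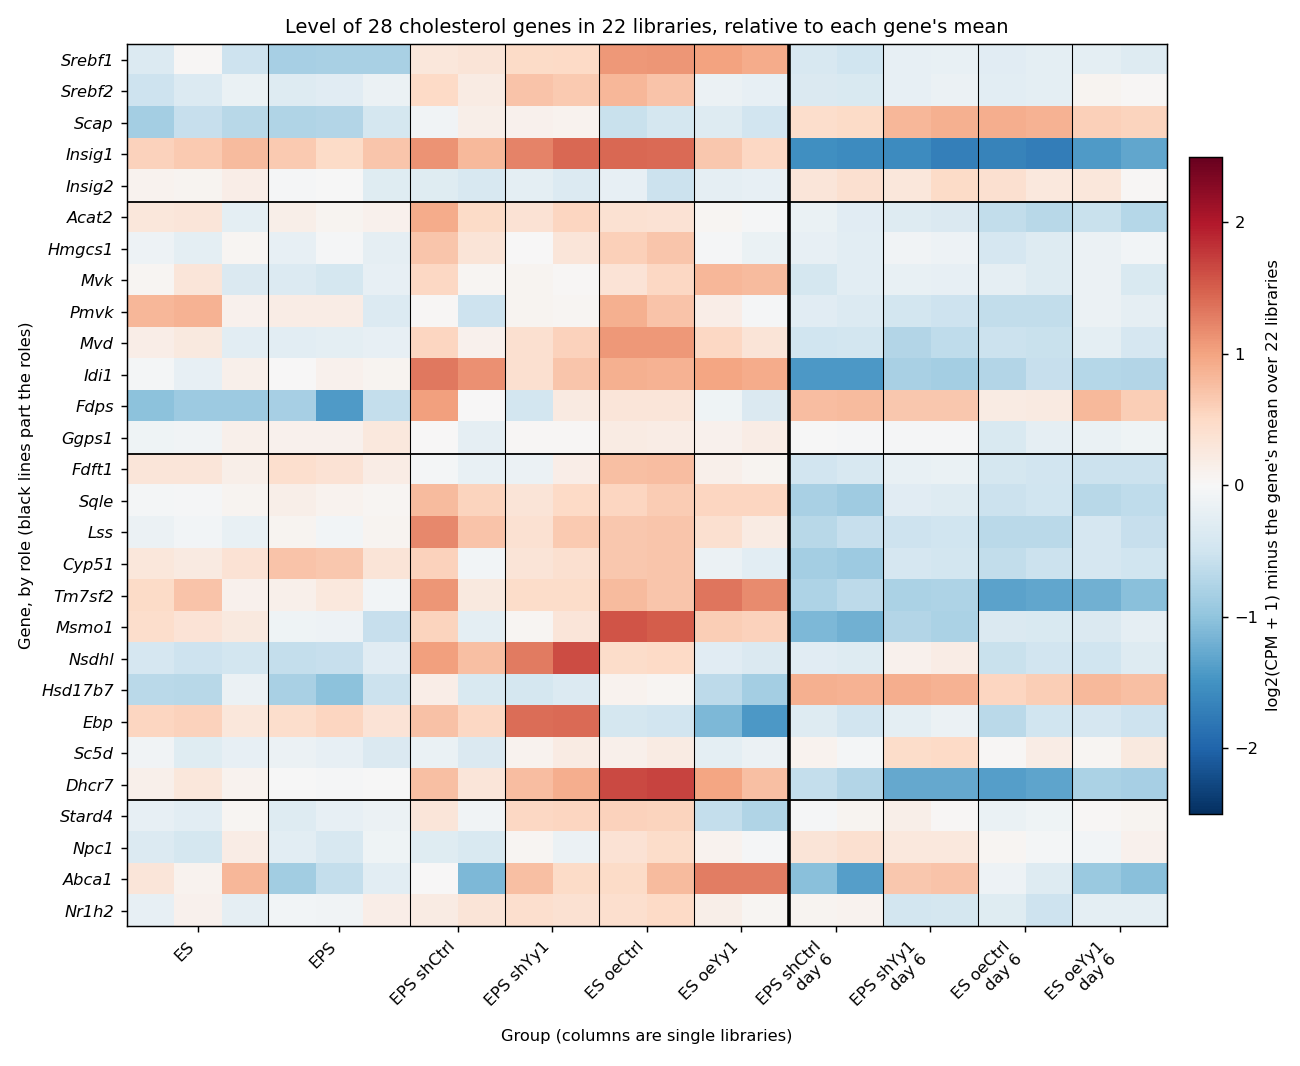
Level of each of the 28 genes (rows, by role) in each of the 22 libraries (columns, by group), as log2(CPM + 1) minus the mean of that gene over the 22 libraries. Insig1 lies above its mean in all undifferentiated libraries and below it in the 8 day 6 libraries, Scap and Hsd17b7 are higher in each day 6 library than in any undifferentiated one, and Msmo1 and Dhcr7 are highest in the ES oeCtrl libraries.

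Parental EPS and ES cells differed in few of the 28 genes. They were kept in different media, LCDM and 2i, so cell type and medium cannot be told apart. EPS cells were lower in 3, Srebf1, Msmo1 and Abca1, and higher in 0, against 16.9% lower, 13.8% higher and 30.6% in either direction over the 16440 genes tested. The log2 fold changes of the 28 ran from -1.03 to 0.37 with a median of 0.02, beside 0.00 over all genes. At an unadjusted p under 0.05, 2 of the 28 were higher and 4 lower in EPS, and DESeq2 called 1 higher and 4 lower.

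Srebf1, which encodes the SREBP1 factor, stood at 88.6, 115 and 78.7 CPM in the ES libraries and 63.5, 64 and 63.7 in the EPS libraries, without overlap (log2 fold change -0.50, SE 0.12, adjusted p = 0.00433). Abca1, the transporter that exports cholesterol to apolipoproteins, stood at 14.3, 12.2 and 20.9 CPM in ES and 5.76, 7.22 and 9.27 in EPS, again without overlap (log2 fold change -1.03, SE 0.25, adjusted p = 0.00545). Both genes are raised by liver X receptors, and Nr1h2 itself was at 75.9, 93.8 and 74.4 against 82.7, 81.8 and 98.5 CPM, with overlapping groups. Msmo1, a methyl sterol oxidase, was at 226, 211 and 198 CPM in ES and 155, 152 and 112 in EPS (log2 fold change -0.53, SE 0.17, adjusted p = 0.0254). Its gene lies on chromosome 8, whose tested genes had a median log2 fold change of -0.28 in this comparison, and its call was lost without ES replicate 1, ES replicate 2 or EPS replicate 3 (adjusted p = 0.0828, 0.0648 and 0.0783). Srebf2 (289.6, 326 and 369.8 CPM in ES, 332, 338 and 375 in EPS) and Insig1 (214, 226 and 249 in ES, 226, 201 and 232 in EPS) overlapped between the groups. None of the 8 mevalonate and isoprenoid enzymes passed the test by edgeR; 1 was higher and 1 lower at an unadjusted p under 0.05, and DESeq2 called Pmvk lower (adjusted p = 0.0308). The replicate numbers of ES and EPS paired the libraries, and the fit with the replicate as a block called 5 genes in place of 3, adding Pmvk, the phosphomevalonate kinase, as lower (adjusted p = 9.45e-05) and Cyp51, the lanosterol demethylase, as higher (adjusted p = 0.0359). Without ES replicate 3 there were 7 calls, and without replicate 3 of both groups 8, of which 3 were higher and 5 lower. Beside these genes 12 of the 16 fibroblast markers fell in EPS, with the sums given above, and their part in the result was not tested.

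Overexpression of Yy1 in ES cells went with lower levels across the sterol-forming part of the list. Of the 28 genes 16 fell and 0 rose, against 32.0% of all 16440 genes tested in either direction and 17.1% lower. The log2 fold changes ran from -1.26 to 0.65, and the median was -0.52 over the 28 and 0.01 over all genes. At an unadjusted p under 0.05, 3 were higher and 18 lower, and DESeq2 called 0 higher and 15 lower. By role, 2 of 5 regulators, 3 of 8 mevalonate and isoprenoid enzymes, 9 of 11 enzymes of sterol formation and 2 of 4 transport genes fell.

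Among the regulators, Srebf2, the gene of the main activator of the pathway, stood at 738 and 683 CPM in ES oeCtrl and 373 and 359 in ES oeYy1, a 1.95-fold lower level (log2 fold change -0.96, SE 0.12, adjusted p = 1.09e-05). Insig1, both a target and a brake of SREBP, was at 390.4 and 386 against 229 and 207 CPM (log2 fold change -0.84, SE 0.12, adjusted p = 4.22e-05). Neither gene overlapped between the groups. Srebf1 (239 and 242 against 228 and 215 CPM, adjusted p = 0.549), Scap and Insig2 did not pass the test.

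In the mevalonate arm, Hmgcs1, the synthase that makes HMG-CoA, was at 601 and 647 CPM in ES oeCtrl and 388 and 352 in ES oeYy1 (log2 fold change -0.76, SE 0.14, adjusted p = 5.38e-04). Mvd, the mevalonate diphosphate decarboxylase, was at 152 and 151 against 103 and 89.6 CPM (log2 fold change -0.66, SE 0.16, adjusted p = 0.00447). Pmvk was at 83 and 73 against 50.1 and 43.2 CPM (log2 fold change -0.74, SE 0.26, adjusted p = 0.0384). Mvk, mevalonate kinase, did not pass the test and had both overexpressing libraries above the controls, at 43.2 and 49.1 CPM in ES oeCtrl and 61.6 and 59.7 in ES oeYy1 (adjusted p = 0.119). Nor did Idi1, the isomerase that follows Mvd, pass, at 103 and 102 against 112 and 106 CPM (adjusted p = 0.666). Fdps, the farnesyl diphosphate synthase, had only 6.53 and 6.54 against 4.65 and 3.73 CPM; its level was low in all 22 libraries, from 1.3 to 11.4 CPM, and reads of a gene with near-identical copies could be left out as not unique, so its values are uncertain.

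The 9 enzymes of sterol formation that fell run from squalene synthase to the last reductase. Msmo1 was at 495 and 479 CPM in ES oeCtrl and 257 and 251 in ES oeYy1 (log2 fold change -0.94, SE 0.20, adjusted p = 0.00233), and Cyp51 at 272 and 276 against 153 and 141 (log2 fold change -0.90, SE 0.17, adjusted p = 7.01e-04). Dhcr7, which reduces 7-dehydrocholesterol to cholesterol, was at 302 and 310.2 against 189 and 160.3 CPM (log2 fold change -0.81, SE 0.13, adjusted p = 1.61e-04). Fdft1, the squalene synthase at the branch point, was at 287 and 291 against 186 and 179 CPM (log2 fold change -0.67, SE 0.13, adjusted p = 0.00105). In each of these 4 genes both overexpressing libraries lay below both controls, which is no further support, since they were named as called genes. The X-linked Nsdhl, a sterol dehydrogenase, was at 73.2 and 75.6 against 43.6 and 40.9 CPM and the X-linked Ebp, a sterol isomerase, at 22 and 21.5 against 13.3 and 10.6, with log2 fold changes of -0.82 and -0.86 where the median of chromosome X was 0.01. Hsd17b7, Lss and Sc5d, a ketosteroid reductase, the lanosterol synthase and a desaturase, fell by 0.84, 0.39 and 0.37 on the log2 scale. The enzymes that did not pass were Sqle, the squalene epoxidase, at 222 and 236 against 222 and 221 CPM (adjusted p = 0.772), and Tm7sf2, a sterol reductase that shares its step with Lbr, at 44.8 and 41.8 against 66.7 and 59.5 CPM (adjusted p = 0.0855).

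Stard4, which moves cholesterol between membranes, gave the steepest fall of the 28, from 109 and 107 CPM in ES oeCtrl to 47.5 and 42.9 in ES oeYy1 (log2 fold change -1.26, SE 0.13, adjusted p = 1.56e-06), a level 2.4-fold lower. Nr1h2 was at 117 and 123 against 96.6 and 89.8 CPM (log2 fold change -0.37, SE 0.13, adjusted p = 0.0372). Abca1, its target in the efflux arm, was at 16.3 and 20.4 CPM in ES oeCtrl and 28.9 and 29 in ES oeYy1; both overexpressing libraries were higher, and the difference did not pass the test (adjusted p = 0.104; 2.81e-04 when fitted on these 4 libraries alone). Npc1, which releases cholesterol from lysosomes, was at 93.7 and 100.5 against 76.8 and 70.6 CPM (adjusted p = 0.0575).

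Of these 16 calls, 10 held under every alternative that was run: Srebf2, Insig1, Hmgcs1, Fdft1, Cyp51, Msmo1, Nsdhl, Ebp, Dhcr7 and Stard4. Without ES oeYy1 replicate 2 these 10 were the calls made. Mvd and Hsd17b7 lost theirs without ES oeYy1 replicate 2 (adjusted p = 0.067 and 0.05), and Pmvk, Lss, Sc5d and Nr1h2 without any single library of the 4 (adjusted p from 0.0572 to 0.274). The control of this comparison stood high: the parental ES libraries were at 289.6, 326 and 369.8 CPM for Srebf2, 63.1, 60.3 and 75.4 for Stard4, 226, 211 and 198 for Msmo1 and 104, 116 and 101 for Dhcr7. For Srebf2 the overexpressing libraries lay within or near that range, for Stard4 below it, and for Msmo1 and Dhcr7 above it. Whether the control line or the overexpressing line had moved away from the parental cells was not tested.

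**Figure D3:**
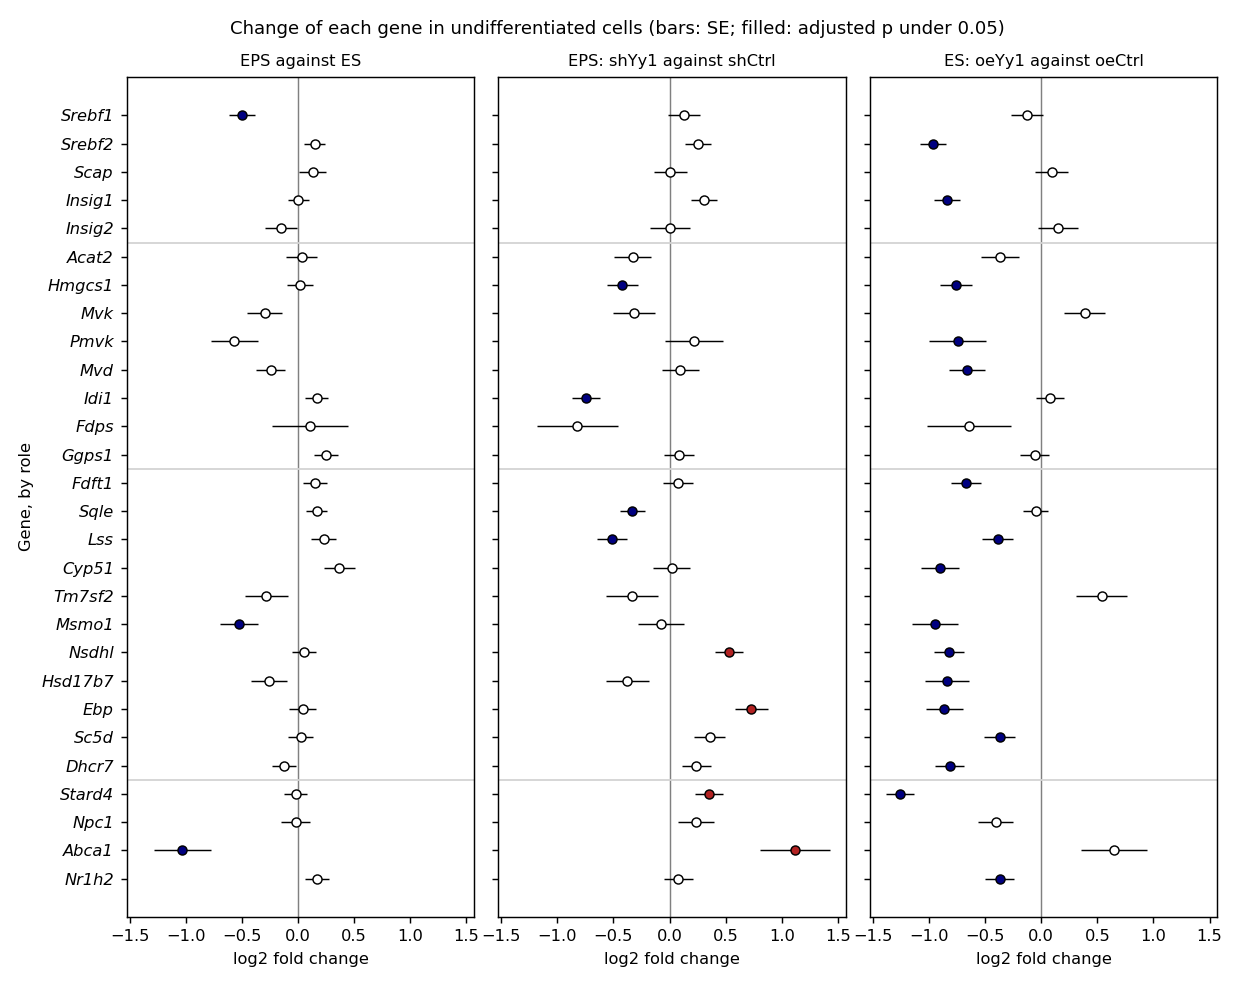
Log2 fold change (horizontal axis) of each of the 28 genes (vertical axis, by role) for EPS against ES, EPS shYy1 against EPS shCtrl and ES oeYy1 against ES oeCtrl, with bars of 1 standard error and filled points at an adjusted p under 0.05. The third panel holds 16 filled points, all left of 0, where the first holds 3 and the second holds 4 on each side.

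Depletion of Yy1 in EPS cells went with changes in both directions, in 28.6% of the 28 genes, close to the share of all genes tested. Of the 28 genes 4 rose and 4 fell, against 15.1% higher, 13.3% lower and 28.5% in either direction over all genes tested, with log2 fold changes from -0.82 to 1.12 and a median of 0.07 beside -0.01 over all genes. This even split rested on single libraries: it was 6 higher and 1 lower without EPS shCtrl replicate 1, 1 and 6 without its replicate 2, 2 and 1 without EPS shYy1 replicate 1, 2 and 4 without its replicate 2, and 6 and 2 with library totals alone. The genes that fell are enzymes of synthesis. Idi1 went from 140.2 and 124 CPM in EPS shCtrl to 74 and 90.0 in EPS shYy1 (log2 fold change -0.75, SE 0.12, adjusted p = 2.53e-04), and Lss from 217 and 153 to 122 and 147 (log2 fold change -0.52, SE 0.14, adjusted p = 0.00911). Hmgcs1 was at 644 and 500.2 against 398 and 492 CPM (log2 fold change -0.42, SE 0.14, adjusted p = 0.0317) and Sqle at 266 and 224 against 189.6 and 216 (log2 fold change -0.33, SE 0.11, adjusted p = 0.0345). In all 4 of these genes both hairpin libraries lay below both controls, again no further support for genes named by their calls. Idi1 and Sqle, which fell here, are among the genes that did not pass the test with overexpression in ES cells.

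The genes that rose with the hairpin were the 2 X-linked enzymes and 2 transport genes. Ebp was at 50.9 and 44.2 CPM in EPS shCtrl and 81.8 and 82.7 in EPS shYy1 (log2 fold change 0.73, SE 0.15, adjusted p = 0.00159), and Nsdhl at 109 and 89.3 against 131 and 167 (log2 fold change 0.53, SE 0.13, adjusted p = 0.00518). The tested genes of chromosome X had a median log2 fold change of 0.83 in this comparison, above both, against -0.03 for autosomes. Stard4 was at 89.3 and 68.3 against 104 and 105 CPM (log2 fold change 0.35, SE 0.12, adjusted p = 0.0398) and Abca1 at 11.5 and 4.65 against 20.0 and 16.3 (log2 fold change 1.12, SE 0.31, adjusted p = 0.0134). None of the 5 regulators passed by edgeR, where 2 were higher and 0 lower at an unadjusted p under 0.05, and DESeq2 called 1 of them, Insig1, higher. Srebf2 was at 586 and 479 against 674 and 652 CPM (adjusted p = 0.106) and Insig1 at 313 and 254 against 339 and 391 (adjusted p = 0.0587, and 0.0269 by DESeq2).

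Of the 8 calls, those of Idi1 and Ebp held under every alternative that tested them. Without EPS shYy1 replicate 1 the calls of Hmgcs1, Sqle, Lss, Stard4 and Abca1 were lost (adjusted p = 0.276, 0.253, 0.117, 0.139 and 0.0973), leaving 3 calls. Without EPS shCtrl replicate 1, Hmgcs1, Sqle and Lss lost theirs (0.197, 0.148 and 0.117). Nsdhl, Stard4 and Abca1 lost theirs without EPS shCtrl replicate 2 (0.0696, 0.334 and 0.159), and Nsdhl and Stard4 without EPS shYy1 replicate 2 (0.127 and 0.155).

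The 2 undifferentiated control lines also differed. EPS shCtrl was lower than ES oeCtrl in 12 of the 28 genes and higher in 4, against 20.7% lower, 19.7% higher and 40.4% in either direction over all genes tested, with log2 fold changes from -1.36 to 1.11 and a median of -0.28. This comparison shares its libraries with both of the preceding ones. The largest difference was in Msmo1, at 246 and 142 CPM in EPS shCtrl and 495 and 479 in ES oeCtrl (log2 fold change -1.36, SE 0.21, adjusted p = 8.60e-05), with chromosome 8 at a median of -0.44. Dhcr7 was at 160.4 and 118 against 302 and 310.2 CPM (log2 fold change -1.16, SE 0.13, adjusted p = 2.86e-06) and Fdft1 at 165 and 150.5 against 287 and 291 (log2 fold change -0.90, SE 0.13, adjusted p = 5.20e-05). In each of these 3 enzymes of sterol formation, named by their calls, both EPS libraries lay below both ES libraries, which is no further support. Ebp was higher in EPS shCtrl (50.9 and 44.2 against 22 and 21.5 CPM, log2 fold change 1.11, SE 0.15, adjusted p = 2.64e-05). Of the 3 genes that differed between parental EPS and ES cells, Srebf1 was at 138 and 141 against 239 and 242 CPM, Msmo1 as above and Abca1 at 11.5 and 4.65 against 16.3 and 20.4, each lower in the EPS line here too (log2 fold changes -0.81, -1.36 and -1.22). Of the 16 calls, 8 held under every alternative that tested them. Without EPS shCtrl replicate 1 the split was 14 lower and 2 higher, and without ES oeCtrl replicate 1 or 2 it was 11 lower with 1 or 2 higher. Without EPS shCtrl replicate 2 there were 10 calls (7 lower, 3 higher), and those of Srebf2, Pmvk, Stard4 and Abca1 were among the ones lost (adjusted p = 0.0641, 0.0622, 0.0717 and 0.0644).

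**Figure D4:**
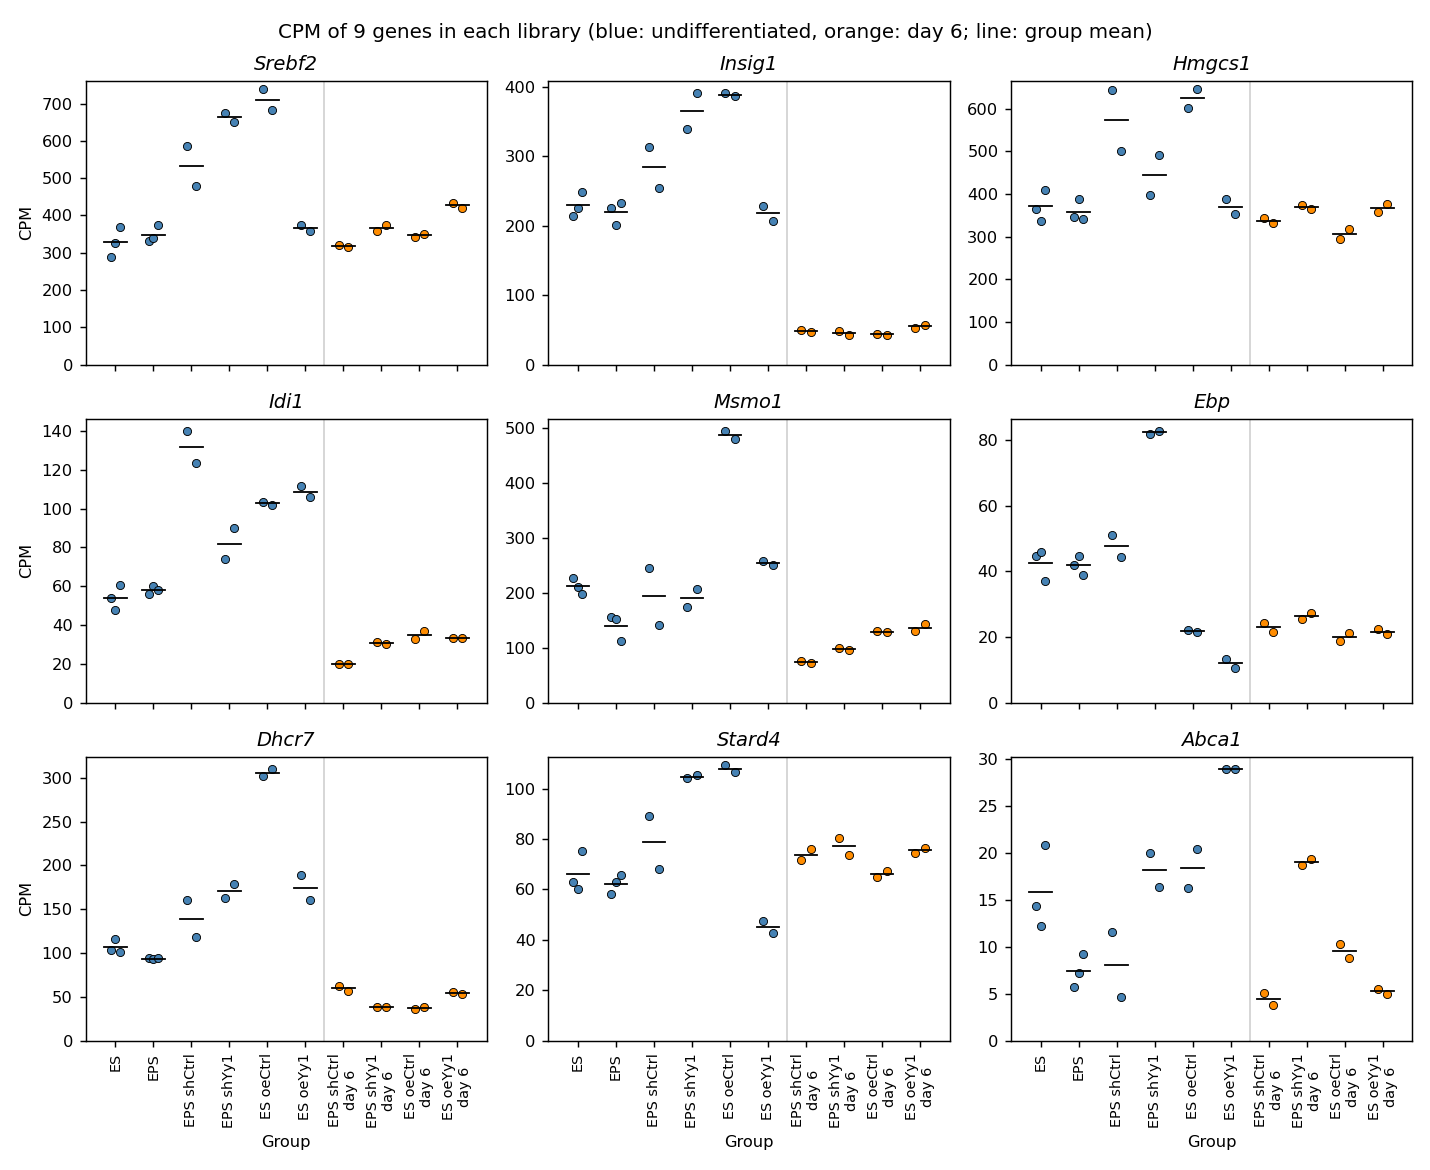
CPM (vertical axis, from 0) of 9 of the genes in each library, by group, in blue for undifferentiated and orange for day 6 libraries, with a line at the group mean. Srebf2, Insig1, Msmo1, Dhcr7 and Stard4 stand higher in ES oeCtrl than in ES oeYy1, Insig1 is at most 57.8 CPM in the 8 day 6 libraries, and Abca1 on day 6 is high in the shYy1 libraries alone.

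Day 6 brought lower levels of most synthetic genes in all 4 lines. Of the 28 genes 20 fell and 4 rose in EPS shCtrl (74.1% of all 17207 genes tested passed in either direction), 18 fell and 6 rose in EPS shYy1 (75.4%), 22 fell and 3 rose in ES oeCtrl (73.0%) and 17 fell and 7 rose in ES oeYy1 (72.7%). Higher calls made up 37.5%, 37.9%, 37.1% and 35.7% of all genes tested, and lower calls 36.6%, 37.4%, 35.9% and 36.9%. The median log2 fold change of the 28 was -0.90, -0.66, -1.03 and -0.39 in that order, while the medians over all genes lay between -0.03 and 0.03. The values of single genes ran from -2.86 to 0.86, -2.95 to 1.36, -3.15 to 1.41 and -2.56 to 1.5. Calls shared by all 4 lines were counted among the 28 genes only, so no share over all genes stands beside them. In each of the 4 lines 12 genes fell (Srebf1, Insig1, Acat2, Mvd, Idi1, Sqle, Lss, Cyp51, Tm7sf2, Msmo1, Dhcr7, Nr1h2) and 3 rose (Scap, Insig2, Hsd17b7). Among these 15, Cyp51 in ES oeYy1 lost its call without any single one of its 4 libraries (adjusted p from 0.0695 to 0.244), and Nr1h2 in EPS shCtrl without its undifferentiated replicate 2 (0.0832). Before differentiation these lines stood above the parental cells in the sum of the 28. On day 6 every library lay below every parental one in Insig1, Idi1, Sqle, Lss, Cyp51, Tm7sf2 and Dhcr7. The day 6 and parental ranges overlapped in Srebf1, Acat2, Mvd, Msmo1 and Nr1h2. Srebf1 was at 79.3 to 99.4 CPM on day 6, 78.7 to 115 in ES and 63.5 to 64 in EPS. Day 6 was not tested against parental cells. The day 6 libraries, titled with the medium F4H, were deposited as a later block, so stage, medium and block cannot be told apart. Beside these changes all 8 pluripotency markers fell in every line, 13 to 15 of the 16 fibroblast markers rose, and the summed CPM of 12 trophoblast markers rose from 144 to 3349 in EPS shCtrl and from 240.3 to 5680.0 in ES oeCtrl; their part in the result was not tested.

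The regulators split. Insig1 went from 313 and 254 to 49.2 and 47.5 CPM in EPS shCtrl (log2 fold change -2.69, SE 0.09, adjusted p = 1.62e-16), from 339 and 391 to 47.8 and 43.2 in EPS shYy1 (log2 fold change -2.95), from 390.4 and 386 to 44.4 and 42.6 in ES oeCtrl (-3.15) and from 229 and 207 to 53.1 and 57.8 in ES oeYy1 (-2.04). All 8 day 6 libraries lay far below all 8 undifferentiated libraries of these lines. Its paralog Insig2, which SREBP does not drive, rose, from 15.8 and 12.2 to 24.3 and 22.2 CPM in ES oeCtrl (log2 fold change 0.74, SE 0.13, adjusted p = 4.92e-05), with log2 fold changes of 0.60, 0.76 and 0.33 in EPS shCtrl, EPS shYy1 and ES oeYy1. The last of these was lost without ES oeYy1 replicate 1 or 2 or its day 6 replicate 1 (adjusted p = 0.0756, 0.0524 and 0.24). Scap rose in ES oeCtrl from 29 and 31.3 to 81.4 and 78.7 CPM (log2 fold change 1.41, SE 0.10, adjusted p = 3.38e-11) and least in EPS shCtrl, from 40.3 and 47.3 to 58.2 and 60.1 (log2 fold change 0.29, SE 0.10, adjusted p = 0.01; lost without EPS shCtrl replicate 1 or its day 6 replicate 2, adjusted p = 0.0791 and 0.07). Srebf2 fell in 3 lines, most in ES oeCtrl, from 738 and 683 to 343 and 349.7 CPM (log2 fold change -1.03, SE 0.07, adjusted p = 2.47e-11). In ES oeYy1 it stood at 373 and 359 before and 432 and 421 on day 6 (adjusted p = 0.059, and 0.0047, as higher, by DESeq2). The parental cells had Srebf2 at 289.6, 326 and 369.8 CPM in ES and 332, 338 and 375 in EPS. Both ranges hold the day 6 level of ES oeCtrl.

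Among the mevalonate and isoprenoid enzymes, Idi1 had the lowest log2 fold change in every line but ES oeCtrl, where Mvd was lower. Its level went from 140.2 and 124 to 20.0 and 19.9 CPM in EPS shCtrl (log2 fold change -2.86, SE 0.09, adjusted p = 9.44e-17), and the log2 fold changes in EPS shYy1, ES oeCtrl and ES oeYy1 were -1.36, -1.55 and -1.78. Mvd and Acat2, the acetoacetyl-CoA thiolase that opens the pathway, fell in each line, by 0.83 to 1.65 and by 0.72 to 1.09 on the log2 scale. Hmgcs1 was at 601 and 647 CPM before and 295 and 317 on day 6 in ES oeCtrl (log2 fold change -1.02, SE 0.10, adjusted p = 4.85e-09), but 388 and 352 before and 358 and 377 on day 6 in ES oeYy1 (log2 fold change -0.08, SE 0.10, adjusted p = 0.469). Ggps1, which makes the geranylgeranyl donor of protein prenylation, fell in the 2 ES lines (log2 fold changes -0.53 and -0.36). Its call in ES oeYy1 was lost without undifferentiated replicate 2 or day 6 replicate 1 (adjusted p = 0.0893 and 0.0635). In EPS shCtrl it was at 23.6 and 19.9 CPM before and 23.3 and 23 on day 6 (adjusted p = 0.725).

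In the sterol-forming steps, Dhcr7 went from 302 and 310.2 to 35.8 and 37.8 CPM in ES oeCtrl (log2 fold change -3.05, SE 0.10, adjusted p = 1.39e-16), a 8.3-fold lower level, with log2 fold changes of -1.35, -2.10 and -1.77 in EPS shCtrl, EPS shYy1 and ES oeYy1. Tm7sf2 went from 66.7 and 59.5 to 10.6 and 11.9 CPM in ES oeYy1 (log2 fold change -2.56, SE 0.18, adjusted p = 6.92e-10). Both reductases were below every undifferentiated library of these lines on day 6. Msmo1 went from 495 and 479 to 129.6 and 128 CPM in ES oeCtrl (log2 fold change -1.91, SE 0.16, adjusted p = 3.20e-07) and from 246 and 142 to 76 and 71.7 in EPS shCtrl (log2 fold change -1.52, SE 0.17, adjusted p = 3.47e-06). Hsd17b7 went the other way in each line, for example from 21.9 and 19 to 61.9 and 59.4 CPM in ES oeYy1 (log2 fold change 1.5, SE 0.12, adjusted p = 1.52e-10). It encodes the ketosteroid reductase of the pathway and also an enzyme of estradiol formation. Ebp fell in both EPS lines (log2 fold changes -1.19 and -1.59), was not called in ES oeCtrl (-0.13, adjusted p = 0.313) and rose in ES oeYy1 (0.78), from 13.3 and 10.6 to 22.4 and 20.8 CPM. Its day 6 levels, 18.7 to 27.2 CPM over the 8 libraries, were closer to one another than those of the lines before differentiation. Ebp is X-linked. The tested genes of chromosome X had median day 6 changes of 0.23 in EPS shCtrl, -0.40 in EPS shYy1, 0.19 in ES oeCtrl and 0.07 in ES oeYy1.

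Of the transport genes, Nr1h2 fell in each line, and the other 3 differed in direction or call between lines. Npc1 rose in EPS shCtrl, from 58.7 and 55.3 to 91.2 and 95.7 CPM (log2 fold change 0.58, SE 0.09, adjusted p = 4.93e-06), and in EPS shYy1 (log2 fold change 0.37), and fell in ES oeCtrl, from 93.7 and 100.5 to 74.9 and 70.3 CPM (log2 fold change -0.42, SE 0.09, adjusted p = 2.13e-04). Stard4 fell in ES oeCtrl (log2 fold change -0.71) and rose in ES oeYy1, from 47.5 and 42.9 to 74.7 and 76.6 CPM (log2 fold change 0.67, SE 0.09, adjusted p = 9.45e-07). Its fall in EPS shCtrl (-0.23) was lost without EPS shCtrl replicate 1 or its day 6 replicate 1 (adjusted p = 0.724 and 0.182). Abca1 fell in ES oeYy1 from 28.9 and 29 to 5.5 and 5.01 CPM (log2 fold change -2.53, SE 0.26, adjusted p = 1.99e-07) and was at 20.0 and 16.3 before and 18.7 and 19.3 on day 6 in EPS shYy1 (adjusted p = 0.642).

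**Figure D5:**
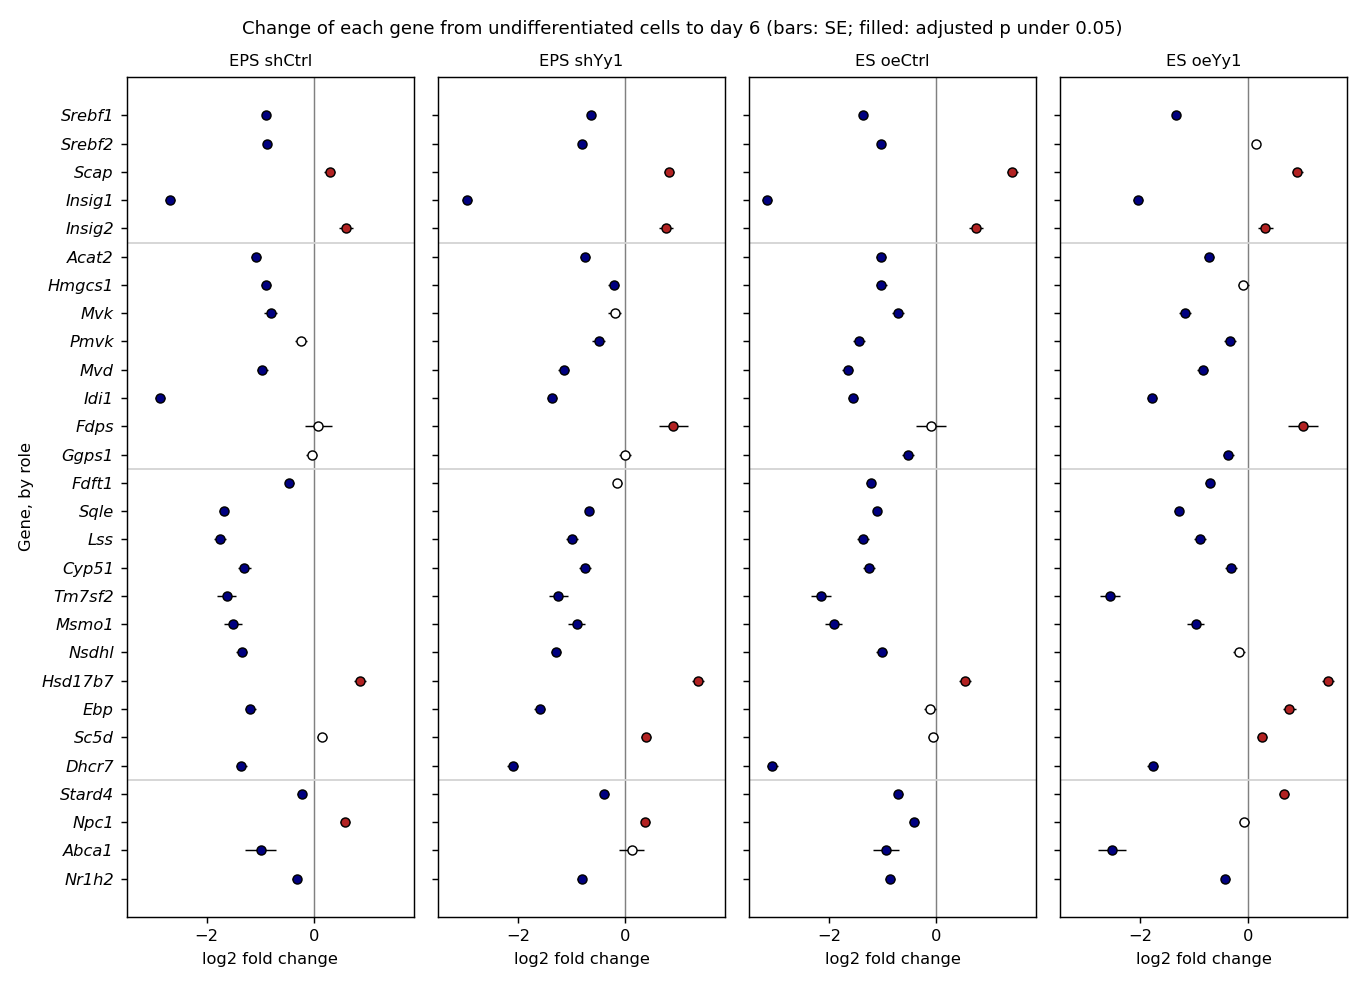
Log2 fold change from undifferentiated cells to day 6 (horizontal axis) of each of the 28 genes (vertical axis, by role) in the 4 lines, with bars of 1 standard error and filled points at an adjusted p under 0.05. Insig1 lies left of -2 in all 4 panels, and Scap, Insig2 and Hsd17b7 lie right of 0 in all 4.

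Between the day 6 lines, most of the list was higher in the libraries labelled shYy1 than in EPS shCtrl. Of the 28 genes 17 rose and 2 fell, against 61.3% of all 15927 genes tested in either direction (30.9% higher, 30.4% lower), with log2 fold changes from -0.50 to 2.25 and a median of 0.26 beside -0.01 over all genes. With library totals alone in place of scaling factors, the median over all genes moved to -0.15 and the counts to 12 higher and 3 lower. CPM follow library totals, so some CPM below lie closer together than the fold changes. The test of Yy1 itself did not pass between these libraries. Between the same libraries, taken in the order of day 6 EPS shCtrl and EPS shYy1, the summed CPM of trophoblast markers was 3347 to 3352 and 6424 to 6505 (7 higher, 3 lower of 10) and that of primitive and extraembryonic endoderm markers 2432 to 2448 and 3621 to 3625 (7 higher, 6 lower of 15). For pluripotency markers the sum was 463 to 466 and 204 to 222 (3 higher, 2 lower of 8) and for fibroblast markers 518 to 522 and 587 to 595 (6 higher, 6 lower of 16); their part in the result was not tested.

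Abca1 gave the largest difference, from 5.02 and 3.77 CPM in day 6 EPS shCtrl to 18.7 and 19.3 in day 6 EPS shYy1 (log2 fold change 2.25, SE 0.14, adjusted p = 6.96e-21), 4.74-fold higher. Idi1 was at 20.0 and 19.9 against 31.2 and 30.5 CPM (log2 fold change 0.76, SE 0.09, adjusted p = 1.93e-11) and Sqle at 86.1 and 81.5 against 125 and 121 (log2 fold change 0.69, SE 0.05, adjusted p = 8.11e-18). Both are enzymes that were lower with the hairpin before differentiation. Cyp51 was at 93.9 and 91 against 128 and 123 CPM (log2 fold change 0.57, SE 0.05, adjusted p = 5.81e-15), Msmo1 at 76 and 71.7 against 99.4 and 96.4 (log2 fold change 0.54, SE 0.05, adjusted p = 3.72e-13) and Sc5d at 48.1 and 43.9 against 62.6 and 64.3 (log2 fold change 0.60, SE 0.07, adjusted p = 4.93e-11). Of the regulators Srebf1, Srebf2 and Scap rose, Scap from 58.2 and 60.1 to 77.1 and 79.8 CPM (log2 fold change 0.54, SE 0.06, adjusted p = 6.48e-12), while Insig1 was at 49.2 and 47.5 against 47.8 and 43.2 CPM (adjusted p = 0.557). The 2 genes that fell were Dhcr7, from 62.7 and 56.8 to 38.7 and 38.4 CPM (log2 fold change -0.50, SE 0.07, adjusted p = 9.99e-09), and Nr1h2, from 91.6 and 93.1 to 62.9 and 63.8 (log2 fold change -0.41, SE 0.06, adjusted p = 3.38e-08). Both lie on chromosome 7, whose tested genes had a median log2 fold change of -0.11 in this comparison. Hsd17b7 and Stard4 were called higher although their CPM overlapped. The X-linked Nsdhl and Ebp were also called higher, where the tested genes of chromosome X had a median log2 fold change of 0.27. Mvk, Lss, Hsd17b7, Ebp and Stard4 each lost their calls under library totals alone (adjusted p = 0.0827, 0.0695, 0.985, 0.0541 and 0.335). Of these, Hsd17b7 also lost its call without any single library of the 4, Mvk without day 6 EPS shCtrl replicate 1 (0.0864), Ebp without its replicate 2 (0.0584) and Stard4 without day 6 EPS shCtrl or EPS shYy1 replicate 1 (0.0671 and 0.128).

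On day 6 the overexpressing line was higher than its control in more of the 28 genes than it was lower. Of the 28 genes 9 rose and 3 fell, against 20.3% higher, 21.6% lower and 41.9% in either direction over all genes tested, with log2 fold changes from -0.91 to 0.53 and a median of 0.08 beside 0.00 over all genes. The total called, 42.9% of the 28, lay close to the share of all genes. Between the same libraries, taken in the order of day 6 ES oeCtrl and ES oeYy1, the summed CPM of trophoblast markers was 5655 to 5705 and 3389 to 3539 (4 higher, 6 lower of 10) and that of primitive and extraembryonic endoderm markers 3377 to 3456 and 2819 to 2858 (3 higher, 10 lower of 15). For pluripotency markers the sum was 373 to 374 and 356 to 359 (1 higher, 5 lower of 8) and for fibroblast markers 633 to 635 and 459 to 495 (3 higher, 7 lower of 16); their part in the result was not tested. Dhcr7 was at 35.8 and 37.8 CPM in day 6 ES oeCtrl and 55 and 52.8 in day 6 ES oeYy1 (log2 fold change 0.51, SE 0.07, adjusted p = 4.93e-08), opposite in sign to its difference in the hairpin line. Srebf2 was at 343 and 349.7 against 432 and 421 CPM (log2 fold change 0.26, SE 0.04, adjusted p = 1.09e-06), Insig1 at 44.4 and 42.6 against 53.1 and 57.8 (log2 fold change 0.31, SE 0.07, adjusted p = 3.73e-04) and Hmgcs1 at 295 and 317 against 358 and 377 (log2 fold change 0.22, SE 0.04, adjusted p = 3.68e-05). These 3 had been lower with overexpression in undifferentiated cells. Of the 16 genes lower at that stage, 8 were higher on day 6, 0 lower and 8 not called. The same count was not made over all genes. Abca1 fell, from 10.3 and 8.84 to 5.5 and 5.01 CPM (log2 fold change -0.91, SE 0.16, adjusted p = 5.22e-06), with Scap (log2 fold change -0.35) and Sqle (-0.19). The calls of Mvd, Hsd17b7, Stard4 and Fdps were each lost under at least 1 omission of a library, those of Mvd, Hsd17b7 and Fdps without day 6 ES oeYy1 replicate 1 (adjusted p = 0.371, 0.15 and 0.0824) and that of Stard4 without day 6 ES oeCtrl replicate 1 (0.157).

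The 2 day 6 controls, EPS shCtrl and ES oeCtrl, differed in 18 of the 28 genes (64.3%), 7 higher and 11 lower in the EPS line. That total lay close to the share of all genes tested, at 64.1% in either direction, 31.6% higher and 32.4% lower. The log2 fold changes of the 28 ran from -1.28 to 0.55. With library totals alone the split was 13 higher and 8 lower, and the median over all genes moved from 0.02 to 0.17. Trophoblast markers were called higher in EPS shCtrl in 3 and lower in 6 of the 10 tested, those of primitive and extraembryonic endoderm in 7 and 8 of 15, pluripotency markers in 1 and 7 of 8 (median log2 fold change -1.43) and fibroblast markers in 9 and 5 of 16. Their sums in both lines are those given above, and their part in the result was not tested. Msmo1 was at 76 and 71.7 CPM in EPS shCtrl and 129.6 and 128 in ES oeCtrl (log2 fold change -0.95, SE 0.05, adjusted p = 1.33e-23), with chromosome 8 at a median of -0.42, and Idi1 at 20.0 and 19.9 against 33 and 36.9 (log2 fold change -0.96, SE 0.08, adjusted p = 3.77e-15). Dhcr7 was higher in EPS shCtrl (62.7 and 56.8 against 35.8 and 37.8 CPM, log2 fold change 0.55, SE 0.07, adjusted p = 5.94e-10), the reverse of the undifferentiated lines. Chromosome 7, which holds Dhcr7, had a median of 0.15 here. Abca1 was again lower in the EPS line, at 5.02 and 3.77 against 10.3 and 8.84 CPM (log2 fold change -1.28, SE 0.16, adjusted p = 2.44e-10).

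Whether an effect changed between the stages was tested as an interaction in a fit over the 16 libraries of both stages, so a difference can depart slightly from that of the values fitted within each stage. The overexpression effect was more positive on day 6 in 17 of the 28 genes and more negative in 3, against 37.6% of all genes tested in either direction (17.7% more positive, 19.9% more negative), with a median difference of 0.50 log2 units beside -0.06 over all genes. Without undifferentiated ES oeYy1 replicate 1 the split was 17 and 1. Stard4 had an effect of -1.26 before and 0.16 on day 6, a difference of 1.38 (SE 0.13, adjusted p = 3.60e-08), and Dhcr7 of -0.81 and 0.51, a difference of 1.29 (SE 0.14, adjusted p = 4.20e-07). Srebf2 and Insig1 differed by 1.18 (SE 0.10) and 1.11 (SE 0.13). Abca1, at 0.65 before and -0.91 on day 6, was the largest of the 3 genes in the other direction (-1.59, SE 0.36, adjusted p = 0.00234). Yy1 itself was 7.66-fold higher before and 2.6-fold higher on day 6.

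The hairpin effect was more positive on day 6 in 12 genes and more negative in 3, against 21.4% more positive, 20.1% more negative and 41.5% in either direction over all genes tested, with a median difference of 0.28. This split depended on the scaling: with library totals alone it was 5 more positive and 6 more negative, and the median over all genes moved from 0.00 to -0.19. It depended on single libraries too, at 8 and 7 without undifferentiated EPS shCtrl replicate 1 and 7 and 3 without undifferentiated EPS shYy1 replicate 1. Idi1, at -0.75 before and 0.76 on day 6, differed by 1.5 (SE 0.13, adjusted p = 1.61e-08), and Sqle, at -0.33 and 0.69, by 1.01 (SE 0.11, adjusted p = 3.01e-07). Dhcr7 went the other way, at 0.24 before and -0.50 on day 6 (difference -0.74, SE 0.14, adjusted p = 2.00e-04). These 3 kept their calls under every alternative, with Scap, Hmgcs1, Lss and Nr1h2. Without day 6 EPS shYy1 replicate 1 there were 8 calls, 6 more positive and 2 more negative.

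The day 6 change itself differed between EPS shCtrl and ES oeCtrl in 15 of the 28 genes, 10 more positive in the EPS line and 5 more negative, against 22.8%, 25.9% and 48.7% for the sum over all genes tested, with a median difference of 0.20 log2 units beside -0.05 over all genes. Without undifferentiated EPS shCtrl replicate 1 the split was 18 more positive and 4 more negative. With library totals alone it was 13 and 4, and the median over all genes was 0.09. Dhcr7 changed by -1.35 in EPS shCtrl and -3.05 in ES oeCtrl (difference 1.70, SE 0.14, adjusted p = 3.35e-09), so its fall was smaller in the EPS line. Idi1 changed by -2.86 and -1.55, a larger fall in the EPS line (difference -1.31, SE 0.13, adjusted p = 4.71e-08). Npc1 rose by 0.58 in the one and fell by 0.42 in the other (difference 0.99, SE 0.12, adjusted p = 1.12e-06). Scap rose by 0.29 and 1.41 (difference -1.12, SE 0.14, adjusted p = 9.64e-07). Insig1, which fell steeply in both, differed by 0.47 (SE 0.13, adjusted p = 0.0039). Of the 15 calls, 13 held under every alternative that tested them; Lss and Ggps1 did not, Lss for example without EPS shCtrl replicate 1 (adjusted p = 0.288) and Ggps1 without day 6 ES oeCtrl replicate 1 (0.0564).

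Other genes of sterol handling were taken as a list of 14, among them the proteases that cut SREBP and genes of lysosomal release, esterification and efflux. With Yy1 overexpression in undifferentiated ES cells 8 of the 14 fell and 0 rose, against 17.1% and 14.8% of all genes tested, with Mbtps2 (-1.37), Abcg1 (-1.54), Lpcat3 (-0.65) and Lipa (-2.01) at the smallest p. Mbtps2 encodes the second of the proteases that cut SREBP. With the hairpin 4 rose and 1 fell (all genes 15.1% and 13.3%), led by Mbtps2 (0.82), Abcg1 (1.18), Scarb1 (0.83) and Osbp (0.38), of which Mbtps2 is X-linked. In EPS against ES 1 rose and 2 fell (all genes 13.8% and 16.9%). On day 6, 5 rose and 6 fell in EPS shCtrl (all genes 37.5% and 36.6%), close to the share of all genes, and 3 rose and 8 fell in ES oeCtrl (all genes 37.1% and 35.9%). The median of the 14 on day 6 was -0.07 and -0.33 in these 2 lines, beside -0.90 and -1.03 for the 28 genes.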

How the data were processed

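RNA-seq of 22 libraries in 10 groups was used; 41 samples of other assays were not analysed here. The deposited tables hold counts of reads per gene symbol made by the authors. Per the submitters' processing notes, CASAVA, Bowtie2 2.3.2 and the build mm10 (GRCm38.p6) were used; the counter and its strand setting are not given in the sources used here. The 5 summary lines of each table were left out of library totals: reads with no feature made up 5.61% to 8.62%, ambiguous reads 3.70% to 5.32% and reads that were not unique 5.45% to 6.66%. With totals of 13672061 to 20782348 counts, a count of 0 allows up to 0.144 to 0.219 CPM (3 counts, counting error only). Groups and replicate numbers come from the sample titles, and no 2 libraries were identical.

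Counts were fitted with edgeR 4.0.16 (R 4.3.3): TMM factors, filterByExpr, robust quasi-likelihood F-tests and Benjamini-Hochberg adjustment over all genes tested, with calls at an adjusted p under 0.05. One fit held the 14 undifferentiated libraries, one the 8 day 6 libraries and one the 16 libraries of the 4 altered and control lines at either stage, each with groups as the only terms, giving 14 comparisons. Scripts were tested on simulated data. The 28 genes and all lists were chosen with earlier results of these data known. Members were named where called, or by role, and other lists by at most 4 called genes of smallest p; 2 genes of a list are not reported here. Same-numbered ES and EPS libraries deviated together (correlations 0.245, 0.322 and 0.546), so the numbers pair them; the other groups, with 2 libraries each, did not meet that rule. Alternatives were RLE factors, DESeq2 1.42.0, no filter, the replicate block, no X and Y genes, only the libraries compared, each library left out and, added after seeing the data, library totals alone and no replicate 3 of ES and EPS. Promoter windows came from RefSeq (GRCm38.p6).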

Additional observations from a re-analysis of the deposited data

Results flagged for a closer look

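The tests of a difference between effects, made as interaction terms in the fit over both stages, passed in 50 cases over the 28 genes. Each value below is the later effect minus the earlier one, or the day 6 change of EPS shCtrl minus that of ES oeCtrl, in log2 units, and no cause of any of them was tested. The 3 tests share libraries, since each control line enters 2 of them.

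The overexpression effect differed between day 6 and undifferentiated cells in 20 genes. Among the regulators the differences were Srebf2 (1.18), Scap (-0.48) and Insig1 (1.11). In the mevalonate and isoprenoid steps they were Hmgcs1 (0.95), Mvk (-0.45), Pmvk (1.11), Mvd (0.82) and Fdps (1.13). In sterol formation they were Fdft1 (0.52), Lss (0.48), Cyp51 (0.94), Msmo1 (0.95), Nsdhl (0.86), Hsd17b7 (0.97), Ebp (0.90) and Dhcr7 (1.29), all in the positive direction. In transport and efflux they were Stard4 (1.38), Npc1 (0.34), Abca1 (-1.59) and Nr1h2 (0.45). The undifferentiated ES oeCtrl libraries enter here and in the test between the control lines. They stood above the parental ES cells in the sum of the 28 genes.

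The hairpin effect differed between the stages in 15 genes. Yy1 itself passed its test as lower with the hairpin only before differentiation, though its day 6 CPM also lay below the controls. The regulators were Srebf1 (0.25) and Scap (0.53), and the mevalonate and isoprenoid enzymes Acat2 (0.34), Hmgcs1 (0.68), Mvk (0.61) and Idi1 (1.5). Sterol formation gave Fdft1 (0.31), Sqle (1.01), Lss (0.77), Cyp51 (0.55), Hsd17b7 (0.50), Ebp (-0.40) and Dhcr7 (-0.74), and transport and efflux Abca1 (1.12) and Nr1h2 (-0.49). Of these 15, the differences of Scap, Hmgcs1, Idi1, Sqle, Lss, Dhcr7 and Nr1h2 passed under every alternative run. The difference of Srebf1 (adjusted p = 0.0483) was lost under 14 of 15 alternatives. Ebp is X-linked, and the tested genes of chromosome X had a median difference of -0.48 here, beyond its own.

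The day 6 change differed between the control lines in 15 genes. The regulators were Srebf1 (0.46), Scap (-1.12) and Insig1 (0.47), the mevalonate and isoprenoid enzymes Pmvk (1.20), Mvd (0.68), Idi1 (-1.31) and Ggps1 (0.48), the enzymes of sterol formation Fdft1 (0.76), Sqle (-0.58), Lss (-0.39), Ebp (-1.06) and Dhcr7 (1.70), and the transport genes Stard4 (0.48), Npc1 (0.99) and Nr1h2 (0.55). The undifferentiated libraries of EPS shCtrl, which enter here and in the hairpin test, lay further apart than those of any other group of 2 libraries.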

How the results depend on the processing

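For EPS against ES, 3 of the 28 genes passed, and 5 passed with DESeq2, with no filter on low counts and with the replicate block, 2 to 7 with each library left out, and 8 without replicate 3 of both groups. For the hairpin in undifferentiated cells 8 passed, and 13 (7 higher, 6 lower) with the replicate block, whose pairs deviated together only weakly (correlation 0.118, 2 pairs), 3 with only the libraries compared, and 3 to 7 with each library left out. The splits by direction that turned on 1 library stand beside each result. Leaving out a library gave 10 to 12 for overexpression in undifferentiated cells, 10 to 16 for EPS shCtrl against ES oeCtrl, and 8 to 17 for the stage change of the hairpin effect, which had 9 with only the libraries compared. These other total counts, in both directions together, stayed within 1.5 times: 16 to 18 and 10 to 12 for the day 6 hairpin and overexpression effects and 15 to 17 for the day 6 control lines, 22 to 24, 23 to 24, 25 to 25 and 20 to 21 for the day 6 changes of EPS shCtrl, EPS shYy1, ES oeCtrl and ES oeYy1, 15 to 19 for the stage change of overexpression and 13 to 22 for the difference between the control lines' day 6 changes, each with a library left out. The replicate block moved no other count past 1.5 times. In these omissions a lone library is assumed to vary like the other groups. For the difference between the control lines' day 6 changes, Cyp51 was 0.28 without EPS shCtrl replicate 1 and -0.26 without replicate 2, and Abca1 0.69 and -0.52. With library totals alone, day 6 EPS shCtrl against ES oeCtrl turned sign in Hmgcs1 (0.14, adjusted p = 0.00402) and Fdft1 (0.0274, adjusted p = 0.636); the median over all genes moved there, as it did by over 0.1 in the day 6 hairpin effect, its stage change, the day 6 change of EPS shCtrl (0.15 against 0.01) and the difference between the control lines' day 6 changes (0.09 against -0.05). Otherwise the cause was not tested. Over the 28 genes and 14 comparisons, DESeq2 ended 14 calls and made 6, and RLE factors ended 5 and made 3. The main limits are 2 libraries in most groups and an unstated origin of the replicates.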

Other observations

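Genes of the fatty acid arm, which SREBP1 drives in parallel, were followed as a list of 13. In undifferentiated ES cells with Yy1 overexpression 7 fell and 0 rose (Scd1 (-0.92), Me1 (-0.89), Lpin1 (-0.70) and Fads1 (-0.58) at the smallest p), against 17.1% and 14.8% of all genes tested, with a median log2 fold change of -0.48. In EPS against ES 6 fell and 0 rose, against 16.9% and 13.8% of all genes, led by Me1 (-1.14), Acss2 (-1.08), Fads2 (-0.66) and Scd1 (-0.51). Day 6 lowered all 13 in EPS shCtrl and in ES oeCtrl, with medians of -1.69 and -1.49, beyond those of the 28 sterol genes (-0.90 and -1.03); of all genes 36.6% and 35.9% fell there. In EPS shYy1 12 of 13 fell and in ES oeYy1 10 (all genes 37.4% and 36.9%). Between day 6 lines, 9 of the 12 tested were higher and 1 lower in the libraries labelled shYy1 (all genes 30.9% and 30.4%), and 7 higher and 1 lower in ES oeYy1 (all genes 20.3% and 21.6%). The summed CPM of the 13 was 2741 ± 318 in ES (SD, n = 3) and 5635 ± 389.9 in ES oeCtrl (SD, n = 2), so the control line again stood above the parental cells, a gap that was not tested.

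The enzymes that take isoprenoids away from sterol synthesis, such as those of dolichol, ubiquinone and protein prenylation, gave a list of 11. With overexpression in undifferentiated cells 2 rose and 0 fell (median 0.09), against 14.8% and 17.1% of all genes, and with the hairpin 0 rose and 1 fell (15.1% and 13.3%). On day 6 4 rose and 7 fell in EPS shCtrl (median -0.22), 3 and 5 in EPS shYy1 (-0.06), 3 and 4 in ES oeCtrl (-0.09) and 1 and 4 in ES oeYy1 (-0.14). Of all genes 37.5%, 37.9%, 37.1% and 35.7% rose and 36.6%, 37.4%, 35.9% and 36.9% fell.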
